A study of Homo sapiens with 4 samples.

Results

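The cells described here were the Ishikawa cells in which at least 15% of the UMIs (random tags, 1 for each RNA molecule caught) came from the 13 protein-coding genes of the mitochondrial genome. They were chosen by that measured share, among cells that carried a time tag and 3000 to 35000 UMIs. Of 7876 such cells 1302 were high (16.5%, exact 95% interval 15.7% to 17.4%), 5117 were low (under 7%) and 1457 lay in between. Each gene was compared between high and low cells of the same time point, and the results were described without tests, since the cells were chosen on the same libraries and every time point was 1 culture.

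Ishikawa is an established endometrial adenocarcinoma line that carries estrogen receptor alpha. All cultures were kept in hormone-depleted medium before treatment, 3 of them were given 10 nM 17β-estradiol (E2) for 2, 4 or 8 h, and a culture given the DMSO vehicle stood for 0 h. Cells of the 4 cultures were tagged with MULTI-seq, mixed and run as 1 droplet library, so time points shared the library but not the culture. T-47D, a breast carcinoma line, was treated and tagged in the same way in its own library and was used as a comparison.

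The tags are shown because nothing else ties a cell to its time point. Capitals mark the 8 bases that were read, each tag is named as in the deposited tag list, and the same tags stood for other times in T-47D.
BC_4 (0 h in Ishikawa, 8 h in T-47D): TTCTGCCT
BC_3 (2 h in Ishikawa, 4 h in T-47D): GCAGCGTA
BC_2 (4 h in Ishikawa, 2 h in T-47D): CATGCCTA
BC_1 (8 h in Ishikawa, 0 h in T-47D): AGGAGTCC

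Mitochondrial transcripts are made and kept inside the organelle, whereas nuclear transcripts are exported to the cytoplasm, where ribosomes translate them, and a few long noncoding RNAs such as MALAT1 stay in the nucleus. A high mitochondrial share in droplet data is widely used as a sign that a cell leaked cytoplasmic RNA, was stressed or was dying, and such cells are commonly filtered out. The study itself kept Ishikawa cells under 7%. Nearly all mitochondrial proteins, including most subunits of the respiratory chain, are encoded in the nucleus and made by cytosolic ribosomes.

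The Ishikawa matrix held 14985 barcodes, of which 9077 had a time point, 1906 a doublet call and 4002 no call. Both lines' matrices shared 80 barcodes, 12 of them high cells. High cells made up 2.63% of the untagged barcodes within the UMI limits (88 of 3345) and 28.3% of those called as doublets (411 of 1454). Epithelial markers were detected in both classes. EPCAM, an epithelial adhesion protein, was at 562 to 604 CPM (counts per 1e6 nuclear-encoded UMIs of a pool) in the 4 high pools and 519 to 544 CPM in the 4 low pools. The 9 markers of its list varied. KRT18 was at 1421 to 1646 CPM in high and 1769 to 2177 CPM in low pools, and CDH1 at 230 to 274 and 67.5 to 80.8 CPM. At all times 3 of the 9 were at least 1.5-fold higher (33.3%, against 40.2% of all genes) and none lower. Of the endothelial and leukocyte markers none reached a mean of 10 CPM, the 4 endothelial markers summed to 1.83 to 5.56 CPM in high and 1.34 to 1.80 CPM in low pools and the 5 leukocyte markers to 0 to 1.44 and 0.33 to 0.52 CPM (CDH5, KDR, PTPRC, CD3E, LYZ and CD79A had no UMI in the high pools), and of 7 fibroblast markers only COL1A1 reached it, at 42.5 to 99.6 CPM in high and 22.3 to 33.0 CPM in low cells.

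High cells were more frequent in the vehicle culture than after E2. They were 463 of 1769 cells at 0 h (26.2%, 24.1% to 28.3%), 259 of 2314 at 2 h (11.2%, 9.94% to 12.5%), 236 of 1448 at 4 h (16.3%, 14.4% to 18.3%) and 344 of 2345 at 8 h (14.7%, 13.3% to 16.2%). The order was 0 h, 4 h, 8 h and 2 h, and the intervals of 4 h and 8 h overlapped. Among cells of 3000 to under 8500 UMIs the gap was smaller, with 60.3% at 0 h against 48.3%, 58.9% and 54.7% at 2, 4 and 8 h. From 8500 UMIs the shares were 3.57% against 1.21%, 1.58% and 1.20%. Exposure to E2 and the handling of each culture cannot be told apart, and all intervals given here cover counting error only.

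High cells were shallow. Their median nuclear-encoded UMI count, meaning UMIs outside the mitochondrial, GFP and tdTomato features, was 3644 to 3989 over the 4 times against 16512.5 to 19652 in low cells, a gap of 4.30 to 5.15-fold. Mitochondrial UMIs went the other way and by less, with medians of 1067 to 1132 per high cell and 719.5 to 810 per low cell, 1.33 to 1.49-fold higher. In ratio terms the gap in nuclear-encoded UMIs was thus the larger of the pair. Both counts enter the share that set the classes, so their opposite shifts were in part fixed by the rule. After each cell was thinned to 2000 nuclear-encoded UMIs, high cells held 1303 to 1343 genes (medians) and low cells 1071.5 to 1094. The unthinned medians were 2101 to 2267.5 and 4227 to 4553 genes.

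**Figure D1:**
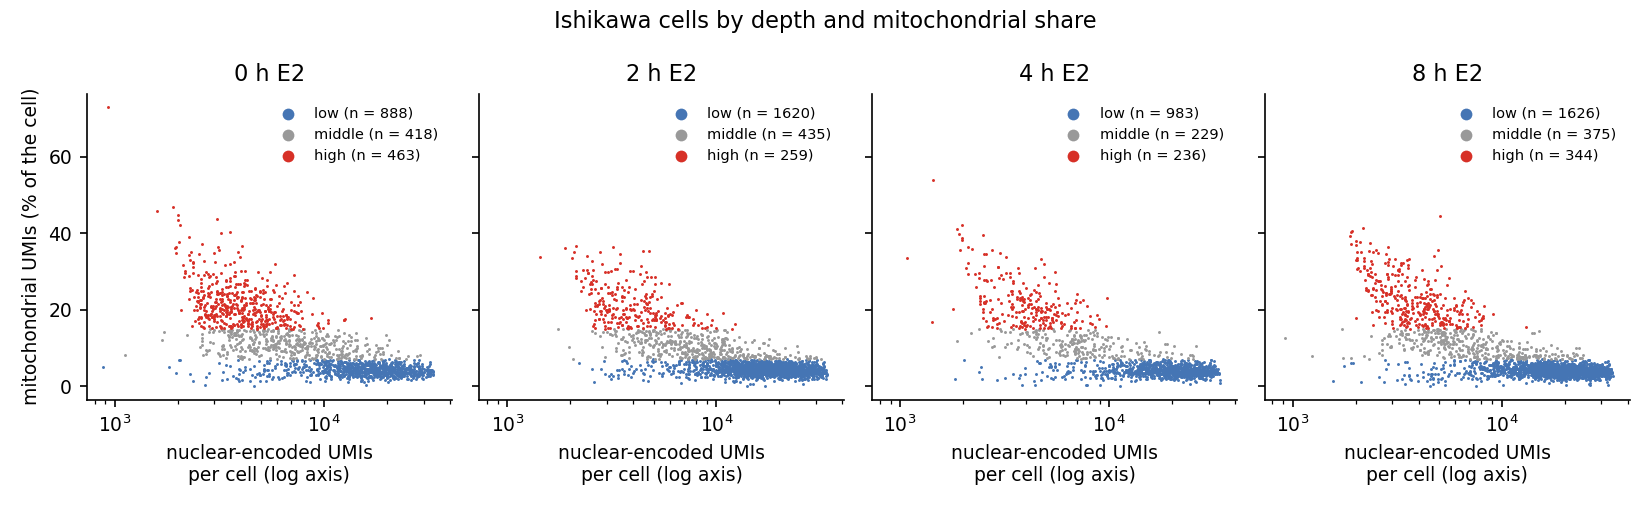
Each point is an Ishikawa cell, with its nuclear-encoded UMIs on a log axis and its mitochondrial share in percent of all UMIs, in a panel per time point; red, grey and blue mark the high, middle and low classes. High cells lie to the left of low cells at every time, with medians of 3644 to 3989 against 16512.5 to 19652 UMIs.

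The limits cut through a continuum. The 160 cells with 14% to under 15% had a median of 4960 nuclear-encoded UMIs and a ribosomal protein share of 14.2%, and the 146 cells with 15% to under 16% had 4506.5 and 13.4%. At the lower limit the 187 cells at 6.5% to under 7% had 12606 UMIs and 23.6%, and the 141 cells from 7% to under 7.5% had 11028 and 23.8%. Only 98 high cells (38, 22, 17 and 21 at 0, 2, 4 and 8 h) reached 8500 UMIs, the lower limit of the study, and 141 had a share of 30% or more.

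The transcripts of the high cells were poor in ribosomal protein mRNAs and rich in nuclear-retained RNA, as the plot of named genes shows. Ribosomal proteins are the protein part of the translation machinery, and their mRNAs are short and abundant. They took 12.2% to 13.5% of nuclear-encoded UMIs in the high pools and 26.0% to 27.0% in the low pools. The contrast held cell by cell, since 90.7% to 95.6% of the high cells lay under the 10th percentile of the low cells of their time.

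MALAT1, a long noncoding RNA held in nuclear speckles, was the most abundant nuclear-encoded transcript. It was at 66912, 65251, 64316 and 69096 CPM in high cells at 0, 2, 4 and 8 h and at 15059, 14662, 12426 and 13181 CPM in low cells, 4.80-fold higher by the median over times. The 2 sets of pools did not overlap, and 80.3% to 86.0% of the high cells exceeded the 90th percentile of the low cells. NEAT1, the scaffold of paraspeckles, was at 14.6 to 25 CPM in high and 4.58 to 7.25 CPM in low cells, from only 16 to 43 UMIs a high pool, and passed the minimum through those pools alone, so that it had to differ. KCNQ1OT1, a nuclear antisense RNA, differed by a median of 1.98 on the log2(CPM + 1) scale. The NEAT1 difference was lost in cells of like depth, as described further on.

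In all 9441 genes averaged 10 CPM or more across the 8 pools. Of these 3799 (40.2%) were at least 1.5-fold higher and 551 (5.84%) at least 1.5-fold lower in high cells at all 4 times. The values of the 8 pools chose these genes, so the counts are a description. Since 931 of the higher genes passed the minimum only through their high pools, they had to differ, and among the 8150 genes past it in both classes 2868 (35.2%) were higher and 543 (6.66%) lower.

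The split between higher and lower genes depended on the scaling. Scaled to nuclear-encoded totals, the median gene was 0.63 (log2) higher in high cells, 0.59 to 0.66 by time. With TMM factors the median gene stood at -0.23, with 626 genes higher and 2482 lower, and with median-of-ratios factors at -0.12, with 881 and 2125. The share of higher genes among the called ones was 87.3% by totals, 20.1% by TMM and 29.3% by median-of-ratios. Lists are therefore mostly also given relative to the median gene. On that scale 1208 genes (12.8%) were at least 1.5-fold above and 1805 (19.1%) at least 1.5-fold below the median gene at all times.

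**Figure D2:**
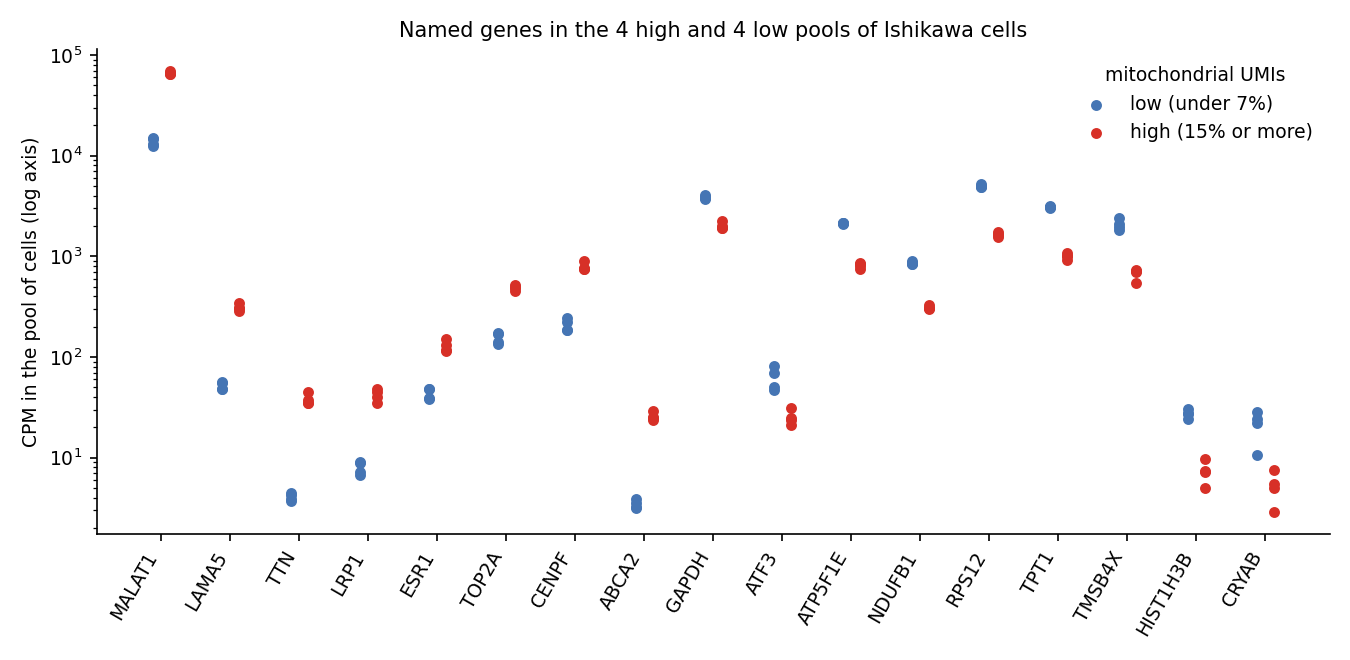
Each point is the CPM (log axis) of a gene in a pool of cells at 1 time, with the 4 low pools in blue and the 4 high pools in red, for 17 genes, 8 of them higher and 9 lower in high cells. The pools do not overlap for any of these genes, which were chosen by rules that used these values; MALAT1 reaches 64316 to 69096 CPM in high cells, and RPS12 is at 1543 to 1731 CPM in high and 4884 to 5219 CPM in low cells.

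None of the 77 cytosolic ribosomal protein genes was higher and 72 were at least 1.5-fold lower at all times, with a median difference of -1.10 (-1.73 relative to the median gene). All 77 lay below the median gene at every time. RPS12, of the small subunit, was at 1629, 1731, 1672 and 1543 CPM in high cells at 0, 2, 4 and 8 h and at 4926, 4884, 5219 and 5025 CPM in low cells, so the pools were far apart. RPS12, RPL12 and RPL32 stood among the 14 lowest genes, at -1.62, -1.61 and -1.56. The 5 not past the limit were RPL36A, RPL4, RPS21, RPL17 and RPL3, with medians of -0.62 to -0.18, and RPL3, nearest to 0, had 2066 to 2420.5 CPM in high and 2382 to 2732 CPM in low cells. Of 25 translation factors 10 were lower and 1 higher (median -0.37, or -1.01 relative to the median gene). Of 76 mitochondrial ribosomal proteins 21 were lower and 2 higher (-0.48, or -1.12), against 1 of 74 lower in T-47D. TPT1, whose mRNA belongs to the same translationally controlled class as those of ribosomal proteins, was at 926 to 1087 CPM in high and 2994 to 3151 CPM in low cells.

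Nuclear genes of the respiratory chain were lower in cells whose mitochondrial genome transcripts took the larger share. Of 37 subunits of complex I, which takes electrons from NADH, 21 were lower and 1 was higher (median -0.79, or -1.42 relative to the median gene). Of 40 subunits of complexes II to V 25 were lower and 2 higher (median -0.98, or -1.62 relative to the median gene). NDUFB1, of complex I, was at 307, 326, 309 and 301 CPM in high cells and 895, 852, 832 and 834 CPM in low cells. ATP5F1E, the epsilon subunit of ATP synthase, was at 755 to 862 CPM in high and 2109.8 to 2167 CPM in low cells. The exceptions were NDUFS1 of complex I, SDHA of complex II and COX6A1 of complex IV, at 0.91, 1.13 and 0.80.

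Genes for the expression of the mitochondrial genome stood on the other side. Of 19 such genes 12 were higher and 1 lower, with a median of 0.80, only 0.16 above the median gene and -0.03 with TMM factors. They included POLRMT, the mitochondrial RNA polymerase (0.92), LRPPRC, which stabilises mitochondrial mRNAs (1.27), and PTCD3, a mitochondrial ribosome protein (1.54), while SLIRP, the small partner of LRPPRC, was at -1.22.

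Of 28 actin cytoskeleton genes 13 were lower and 6 higher (median -0.63, or -1.26 relative to the median gene). TMSB4X, which binds actin monomers, was at 694, 734, 713 and 541 CPM in high cells against 2089, 1941, 2385 and 1811 in low cells, and PFN1 and CFL1, which turn actin filaments over, were at -1.24 and -1.09, while the large crosslinker FLNA was at 1.60. Histone genes had 7 of 15 lower and none higher (median -0.72, or -1.36 relative to the median gene), and all 3 metallothioneins were lower (-0.99, or -1.62); at like depth, as described further on, 1 histone gene and no metallothionein was lower. FTH1, the heavy chain of the iron store ferritin, was at 1916 to 2237 CPM in high and 4598 to 5215 CPM in low cells, and GAPDH, of glycolysis, at 1903 to 2248 and 3728 to 4045 CPM.

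Among lists with over 20 genes tested, membrane proteins had the largest share of higher members. Of 32 membrane and lysosomal protein genes 17 were higher and none lower (53.1% of them, against 40.2% of all genes), with a median of 0.93, 0.29 above the median gene. ITGAV and ITGA3, integrin subunits that bind extracellular matrix, were at 190.8 to 244 and 41.1 to 53.6 CPM in high and 71.9 to 84.5 and 12.1 to 15.5 CPM in low cells. LRP1, an endocytic receptor, was at 34.7 to 47.6 and 6.73 to 8.95 CPM, and passed the minimum through the high pools alone. LAMA5, a laminin chain of the basement membrane, was the most abundant protein-coding gene among the 14 highest, with 343, 303, 289 and 309 CPM in high cells and 54.6, 56.4, 47.7 and 48.0 CPM in low cells, 6.07-fold. Its pools did not overlap. CDH1, the epithelial cadherin, was at 230.1 to 274 against 67.5 to 80.8 CPM. ESR1, estrogen receptor alpha, was at 152, 118, 115 and 133 CPM in high cells and 48.1, 47.8, 37.8 and 39.1 CPM in low cells.

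The other genes among the 14 highest were TTN (2.91), PIF1 (3.04), WDR90 (2.75), SPTBN5 (2.72), ABCA2 (2.59) and 8 genes annotated as lncRNA (SMCR5 and 7 with clone names). TTN, which encodes the muscle protein titin and has the longest transcript of all genes tested, had 34.6 to 44.9 CPM in high and 3.67 to 4.4 CPM in low cells, from 41 to 69 UMIs a high pool. Several of these genes were under 10 CPM in every low pool and passed the minimum through the high pools.

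Over all cells the cholesterol, splicing and hypoxia lists sat near the median gene. Of 24 cholesterol synthesis genes 11 were higher (45.8%, against 40.2% of all genes) and none lower. Their median of 0.59 was -0.05 relative to the median gene and turned to -0.26 with TMM factors. At 3000 to under 8500 UMIs the cholesterol list stood 0.46 above the median gene. There 5 of 24 were higher, beside 9.98% of all genes, and none lower. Of 34 splicing factors 16 were higher (47.1%) and of 11 hypoxia-induced genes 4 (36.4%). Both medians (0.71 and 0.62) turned below 0 with TMM factors (-0.17 and -0.23).

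Lists of stress genes were set beside the median gene, which itself moved with the scaling. The highest of them, NF-kB targets, stood 0.14 (log2) above it. Of 16 heat shock genes none was higher and 2, HSPB1 and CRYAB, were lower. Of 14 immediate-early genes 1 was higher and 1 lower. EGR1, a growth factor induced transcription factor, was at 34.4, 41.1, 88.9 and 102 CPM in high cells and 15.3, 12.8, 23.1 and 42.8 CPM in low cells. ATF3, a stress induced transcription factor, was at 31.3, 23.7, 25 and 20.9 CPM in high and 80.6, 47.1, 50.3 and 68.8 CPM in low cells, although it no longer differed (0.02) among cells under 1% GFP UMIs.

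The integrated stress response, which slows translation and induces amino acid transporters, had 6 of 25 genes higher and 1 lower, that is 24.0% higher against 40.2% of all genes. The 6 were the transporters SLC7A5 (1.62), SLC7A11 (1.20) and SLC3A2 (0.96), the lipoprotein receptor VLDLR (1.51), and AARS and XPOT, of tRNA charging and export (0.93 and 1.06). Of 16 p53 targets 4 were higher and none lower, of 13 BCL2 family genes 4 and 0, of 24 endoplasmic reticulum chaperones 8 and 2, of 16 NRF2 targets 1 and 3, of 5 NF-kB targets 2 and 0, and of 9 interferon-stimulated genes 0 and 2. The share of higher genes in each of these lists was at or under that of all genes, while the share of lower genes was above it for NRF2 targets, interferon-stimulated genes and endoplasmic reticulum chaperones. Summed over its members the integrated stress response was at 3082 to 3591 CPM in high and 2254 to 2435 CPM in low cells. The cells are called here by their mitochondrial share, and whether they were stressed was not tested.

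**Figure D3:**
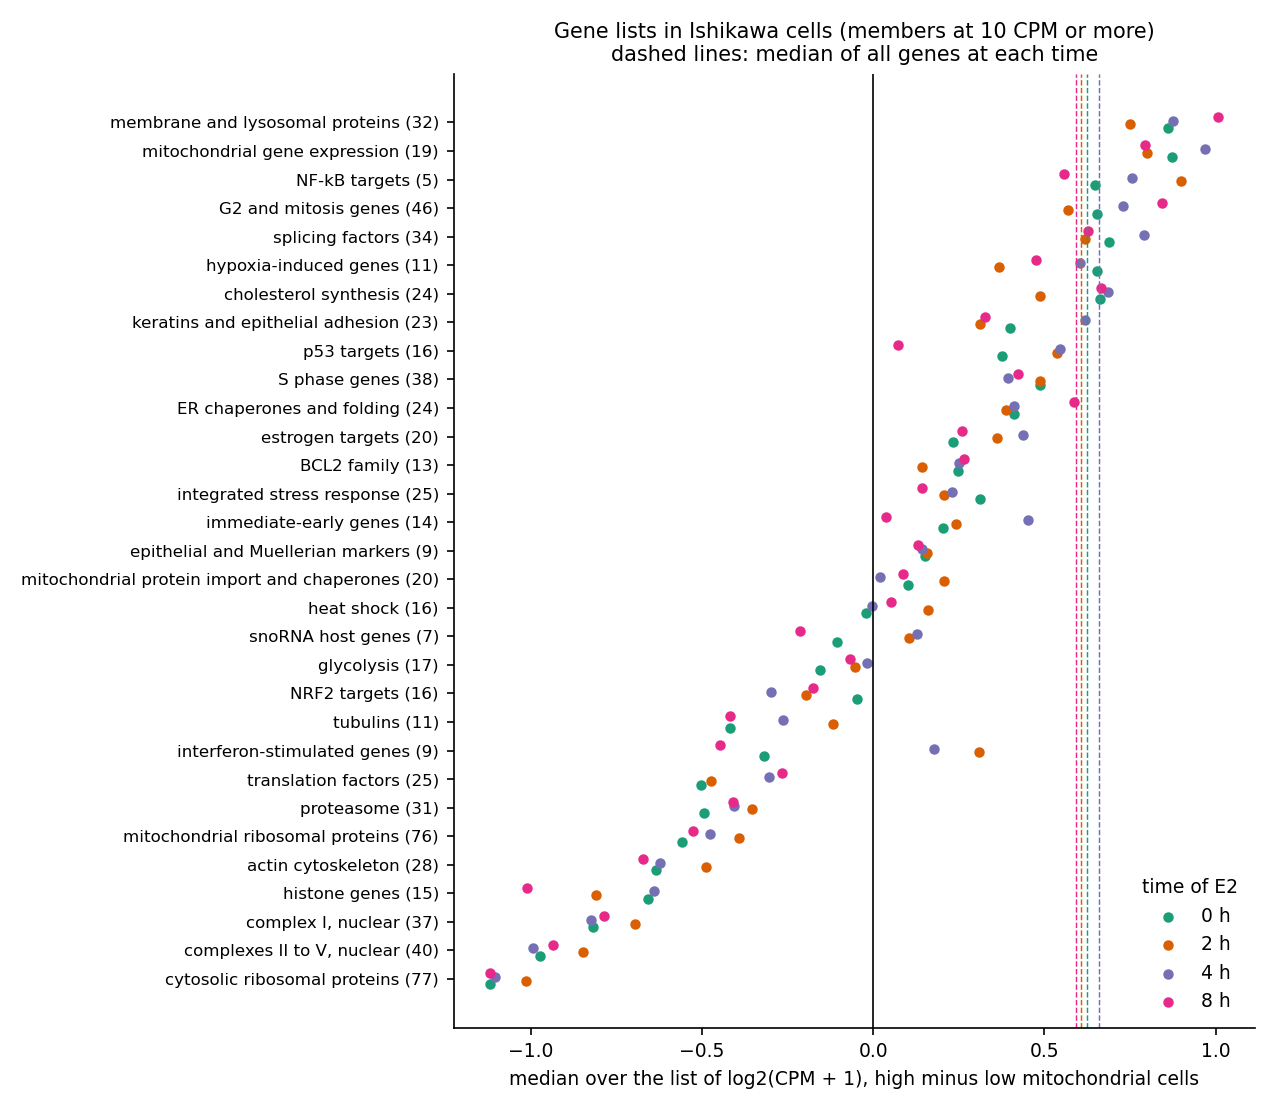
Each row is a gene list with its number of members at 10 CPM or more (lists with 5 or more such members), and each point the median over the members of the difference in log2(CPM + 1) between high and low cells at 1 time; dashed lines give the median of all genes at that time (0.59 to 0.66). By the median over times ribosomal protein and respiratory chain lists lie lowest (-1.10, -0.98 and -0.79). Membrane proteins and mitochondrial gene expression lie highest (0.93 and 0.80). The stress lists lie at or left of the dashed lines apart from NF-kB targets at 3 of 4 times. With TMM factors the median gene is at -0.23. The medians of G2 and mitosis, splicing, cholesterol, hypoxia, NF-kB and mitochondrial gene expression lists then turn negative. Lists with smaller positive medians change sign too with median-of-ratios factors, such as keratins (-0.24), S phase genes (-0.26), p53 targets (-0.29) and the integrated stress response (-0.47).

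The genes that were higher had long transcripts and those that were lower had short ones. Spliced length was taken from the canonical transcript of the GENCODE annotation for 9385 of the 9441 genes (99.4%), a property looked up after the differences were known. The median length was 4853 bases among the higher genes, 1028 among the lower and 3330 among all tested. Transcripts under 1000 bases made up 2.10% of the higher, 48.6% of the lower and 7.12% of all tested genes, and those of 5000 bases or more 48.2%, 4.74% and 28.2%. Noncoding genes annotated as lncRNA were 189 of the higher (5%), 6 of the lower (1.09%) and 309 of all genes (3.28%).

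The relation was graded. Over 10 groups of equal number from the shortest (median 863 bases) to the longest (median 9804 bases), the median difference went from -0.56 through 0.65 in the fifth group to 1.24, higher in each group than in the one before. In the shortest group 97 genes were higher and 315 lower, and in the longest 763 were higher and 6 lower. Across genes Spearman's rho between length and difference was 0.55 (n = 9385), 0.43, 0.51 and 0.68 in genes of low, middle and high CPM (3 groups of equal number), and 0.53 without ribosomal protein and respiratory chain genes. Genes of a pool share its depth and are not independent. Within lists the order was similar, since NDUFS1 has 11660 bases against a median of 650 for the lower complex I genes, and the higher and lower actin genes had medians of 6474 and 1217 bases. Some genes went against it. COX6A1 was higher with a transcript of 537 bases, and among the 14 highest genes the lncRNAs AL356599.1 and AL354733.3 had 268 and 390 bases.

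**Figure D4:**
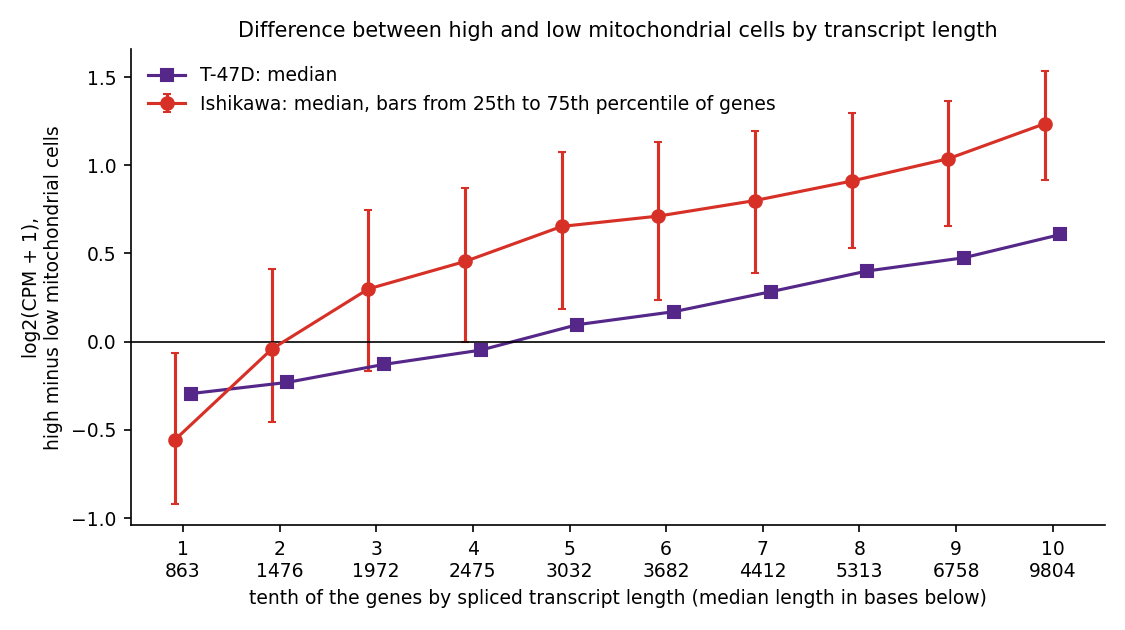
Genes are split into 10 groups of equal number by spliced transcript length, and the points give the median difference in log2(CPM + 1) between high and low cells, in red for Ishikawa with bars from the 25th to the 75th percentile of genes, in purple for T-47D. Both lines climb from the shortest group (-0.56 and -0.29) to the longest (1.24 and 0.61).

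The middle cells, which the comparison did not use, lay between. Of the 3799 higher genes 3401 (89.5%) had a CPM between low and high cells in the middle cells at all 4 times, and of the 551 lower genes 529 (96.0%). The median difference of middle from low cells was 0.68 for the higher and -0.39 for the lower genes, against 1.24 and -0.99 for high cells. MALAT1, for example, was at 36394, 30344, 31267 and 31613 CPM in middle cells. These cells come from the same cultures and library and are not an independent check.

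In finer bins the gradient did not stop at either limit. Ribosomal protein genes summed to 268065 CPM in cells under 5% and went through 218862 CPM at 7% to under 10% and 133978 CPM at 15% to under 20% to 111558 CPM at 30% or more. Nuclear-retained RNAs went from 13380 to 76029 CPM over the same bins, and LAMA5 from 48.2 to 535 CPM. Cells of 20% to under 30% were at 117757 CPM, close to the top bin. Membrane and lysosomal protein genes were highest at 15% to under 20%, with 10515 CPM, and stood at 9522 CPM in the top bin. Depth moved with the bins, from a median of 19028 to 2527 nuclear-encoded UMIs.

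**Figure D5:**
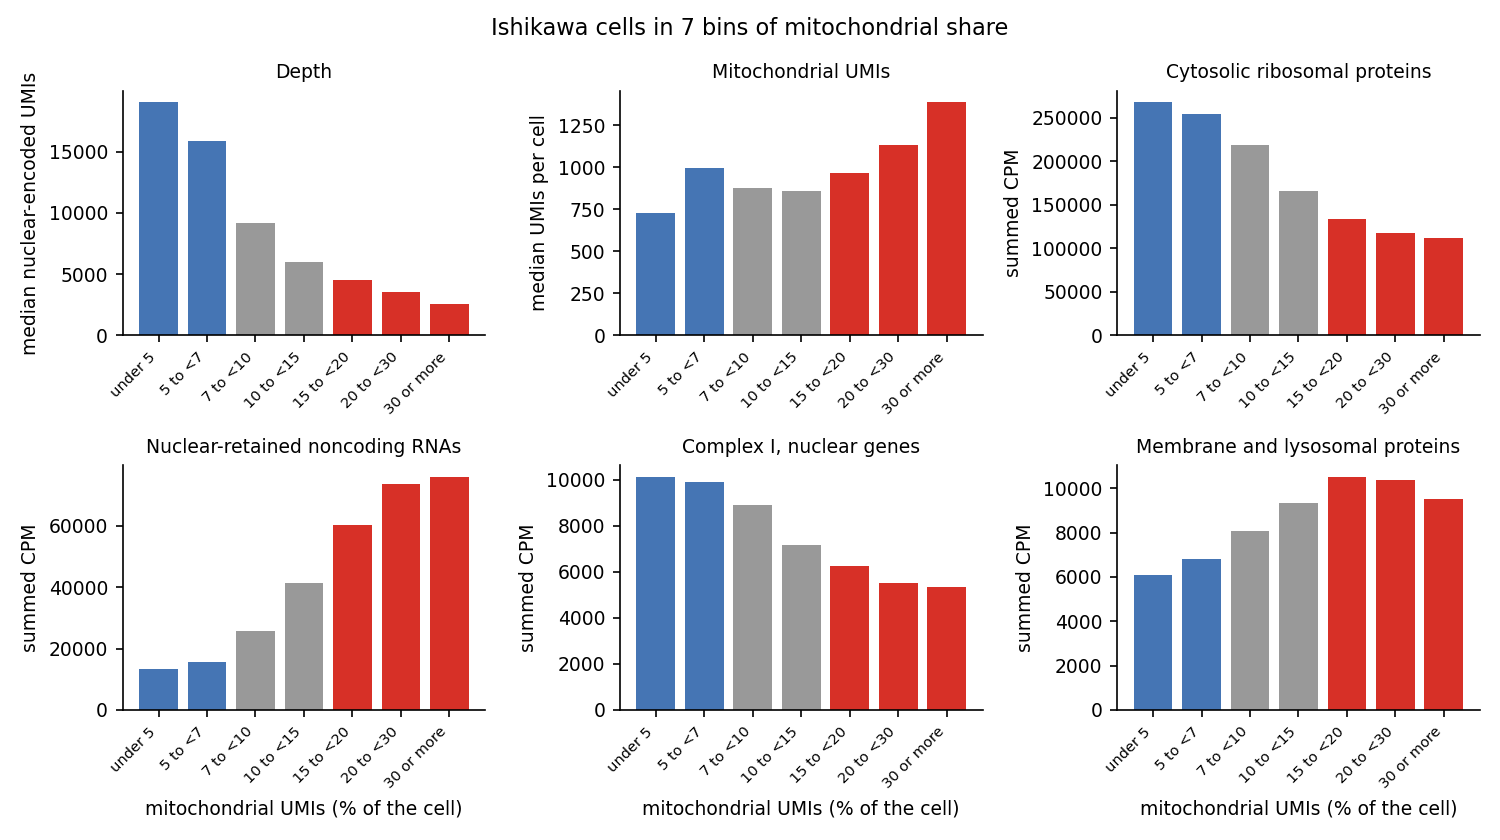
Bars give, for 7 bins of mitochondrial share (percent of a cell's UMIs; blue low, grey middle, red high), the median nuclear-encoded and mitochondrial UMIs per cell and the summed CPM of 4 gene lists as the mean over the 4 times. Ribosomal protein genes drop from 268065 to 111558 CPM and nuclear-retained RNAs climb from 13380 to 76029 CPM, while the median depth drops from 19028 to 2527 UMIs.

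Depth and mitochondrial share ran together in Ishikawa, so the comparison was repeated within narrower ranges of depth. The range of 3000 to under 8500 UMIs is called like depth here, although its low cells still held more nuclear-encoded UMIs on average than its high cells. Among cells of 3000 to under 8500 UMIs there were 1204 high cells but only 53, 59, 27 and 55 low cells at 0, 2, 4 and 8 h. Of 9887 genes 987 (9.98%) were then higher and 242 (2.45%) lower at all times, and the median gene stood at 0.26. Of the 987 genes 902 were among the 3799, and of the 242 150 were among the 551. Ribosomal protein genes had 40 of 77 lower, with a median of -0.71 (-0.97 relative to the median gene), MALAT1 differed by 1.5, and length kept a rho of 0.40 with the difference. Membrane and lysosomal proteins had 8 of 32 higher and none lower. In the lists that follow fewer genes were lower than over all cells, as was so for all genes (2.45% against 5.84%). Complex I had 6 of 37 lower, complexes II to V 10 of 40, translation factors 6 of 25, mitochondrial ribosomal proteins 3 of 76, actin cytoskeleton genes 5 of 28, histones 1 of 15 and metallothioneins 0 of 3. The medians of complex I and of complexes II to V were both -0.79 relative to the median gene, and that of metallothioneins was -0.54.

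Several genes did not keep their direction at like depth. NEAT1 was at -0.14, TGFA at -0.31, HIST1H3B at 0.91 and CRYAB at 0.57. The low pools there held only 2 to 20 UMIs of NEAT1 and 0 to 8 of CRYAB. Some stress genes, taken from the lowest genes after their values were seen, were well above the high cells in the shallow low cells. ATF3 was at 33.3, 26.5, 24.2 and 22.9 CPM in high cells and 424, 78.9, 165 and 245 CPM in low cells, and GADD45B, a growth arrest gene induced by stress, at 37.6 to 54.3 against 111 to 496 CPM. DDIT3, which encodes the stress factor CHOP, was at 60 to 72.9 against 126 to 282 CPM. The fixed lists went both ways there. Of 15 immediate-early genes none was higher and 3 were lower, of 25 integrated stress response genes 3 were higher and 4 lower (median 0.02), and of 24 endoplasmic reticulum chaperones 3 were higher and 1 lower (0.31).

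Within 8500 to 35000 UMIs, where only 98 high cells remained, 1810 genes were higher and 311 lower, and the ribosomal protein median was -1.02. Weighting low cells toward the depth of high cells gave 1756 and 403, but rested on an effective 26.5 to 51.6 low cells a time and left them deeper, with means of 5408 to 5742 nuclear-encoded UMIs against 4033 to 4274. In every one of these settings the shortest group of genes lay below and the longest above the median gene, at -0.53 and 1.08 for the deep cells and -0.33 and 0.83 for the weighted ones.

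GFP UMIs differed as well. They had a mean share of 1.05% to 1.53% of a high cell's UMIs and 4.77% to 7.17% of a low cell's, with medians of 0.46% to 0.49% and 0.59% to 0.82%. Among cells under 1% GFP 3843 genes were higher and 557 lower, and 3566 and 514 of them were among those of all cells.

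Genes of mitosis differed more at like depth than over all cells. Of 46 G2 and mitosis genes 19 were higher (41.3%, against 40.2% of all genes) and 1 lower over all cells. Their median was 0.72, which was 0.08 above the median gene and -0.13 with TMM factors. TOP2A, which untangles replicated DNA, was at 484, 492, 522 and 451 CPM in high cells and 174, 168, 140.3 and 135 CPM in low cells, and CENPF, a kinetochore protein with a transcript of 10290 bases, at 743 to 889 against 185 to 244 CPM. CKS2, a cyclin-dependent kinase subunit with a transcript of 616 bases, was at 86.9 to 134 against 214 to 229 CPM. At like depth 28 of the 46 were higher, where 9.98% of all genes were, and none lower (median 1.34, 1.08 above the median gene). In cells thinned to 2000 nuclear-encoded UMIs 35.6% to 38.9% of high cells and 14.9% to 18.1% of low cells held a TOP2A UMI, whereas the unthinned shares were 44% to 52.3% and 45.4% to 50.6%. A greater part of cells in mitosis and more of these RNAs per cell cannot be told apart in pooled counts.

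The mix of mitochondrial transcripts, which the rule did not use, differed little between the classes. MT-CO1 took 20.8% to 21.4% of mitochondrial UMIs in high and 22.4% to 22.8% in low cells, and MT-CO2 18.5% to 19.6% and 20.2% to 20.9%; both encode subunits of complex IV. MT-ATP6, of ATP synthase, took 8.06% to 8.54% and 6.66% to 6.91%, and MT-CO3 13.3% to 14% and 12% to 12.6%. MT-ND6, the only protein encoded on the light strand, took 0.42% to 0.47% and 0.31% to 0.35%, a log2 difference of 0.39. For these 5 genes the 4 high pools did not overlap the 4 low pools, and the same held for MT-ND3, MT-ND4 and MT-ND4L. All 5 differed the same way in T-47D. The log2 differences there were -0.08 for MT-CO1, -0.19 for MT-CO2, 0.29 for MT-ATP6, 0.05 for MT-CO3 and 1.22 for MT-ND6.

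The response to E2 could be read in both classes. TGFA, a growth factor of the EGF family, was 1.35, 1.37 and 1.71 (log2 against 0 h) higher at 2, 4 and 8 h in high cells, with intervals from 0.83 to 2.28, and 1.48, 1.64 and 1.84 higher in low cells. Its level was above that of low cells at each time, at 23.8 to 80.0 against 12.4 to 47 CPM, although that difference turned to -0.11 with TMM factors. G0S2, an inhibitor of fat breakdown, was 1.84, 1.89 and 1.49 higher in high cells (interval at 2 h 1.45 to 2.30) and 2.58, 2.86 and 2.15 higher in low cells (2.47 to 2.81). Weighted toward the depth of high cells, though still deeper, low cells gave 1.45, 1.57 and 0.82 for G0S2 and 0.94, 1.70 and 1.44 for TGFA, so the order of the classes depended on this weighting. PEG10, a retrotransposon-derived imprinted gene, was at 732.8 to 1074 CPM in high and 624.9 to 894 CPM in low cells, with E2 changes of 0.21, 0.07 and 0.55 in high and 0.10, 0.22 and 0.52 in low cells. DHRS3, a retinaldehyde reductase, had 3 UMIs at 0 h and 13, 18 and 32 UMIs at 2, 4 and 8 h in high cells, and 30, 252, 324 and 660 in low cells. Its E2 changes were 2.35, 2.91 and 3.26 in high cells, 1.68, 2.58 and 2.91 in low cells and 0.88, 1.91 and 2.58 in the weighted low cells. PGR, the progesterone receptor, and GREB1, a coactivator of the estrogen receptor, stayed under the minimum, with 3, 4, 12 and 15 UMIs of PGR and 9, 11, 5 and 16 UMIs of GREB1 in the high pools. DDIT4, an inhibitor of mTOR signaling, was at -0.43, -0.42 and -1.03 in high cells and -0.37, -0.57 and -0.51 in low cells.

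Of 20 estrogen target genes past the minimum, 13, 13 and 12 were at least 1.5-fold higher than at 0 h in high cells at 2, 4 and 8 h, where 3.4%, 4.55% and 3.35% of all genes were. In low cells 14, 11 and 10 were, against 0.89%, 0.847% and 0.985% of all genes. The medians were 1.00, 1.19 and 0.80 in high and 0.67, 0.77 and 0.67 in low cells. This list was chosen with earlier results of these data known, so its rise may have been fixed beforehand and is a description. Both classes share their own 0 h pool across times, and the high pools held 1001527 to 1978837 nuclear-encoded UMIs against 14970252 to 30603456 in the low pools, so counting error was larger in high cells.

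T-47D gave the same comparison with depth nearly equal among its tagged cells. There 664 cells were high and 973 low of 4443, median nuclear-encoded UMIs of low cells were only 1.10 to 1.14-fold those of high cells, and mitochondrial UMIs were 2.92 to 3.31-fold higher in high cells. No tagged T-47D cell within the UMI limits had 20% or more or fell under 8500 UMIs. The study kept T-47D cells under 20%. Of 8104 untagged T-47D barcodes within the UMI limits 7234 (89.3%) were high, 3930 of them under 8500 UMIs and 4395 at 30% or more. Shallow cells and the highest shares were thus absent from this comparison, which cannot be told apart from a difference between the lines. Of 7808 genes 440 (5.64%) were higher and 90 (1.15%) lower at all 4 times, and the median gene stood at 0.08.

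For most genes called in Ishikawa the differences ran the same way in T-47D but were smaller. Of the 3799 higher genes 2385 were tested in T-47D, where 1678 were positive at all times, 354 were higher by the same rule and 9 were lower, with a median of 0.47. Of the 551 lower genes 529 were tested, 448 were negative at all times, 13 were lower and none higher, with a median of -0.32. Among all 7088 genes tested in both lines 38.5% were positive and 27.9% negative at all times, and Pearson's r of the median differences across them was 0.65 and Spearman's rho 0.68. The 354 genes were 80.5% of the 440 genes higher in T-47D and 9.32% of the 3799 in Ishikawa. Beside this, 2385 of the 7088 genes tested in both lines were higher in Ishikawa. Of the 90 genes lower in T-47D 13 were lower in Ishikawa, beside 529 of the 7088 genes tested in both lines.

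NEAT1 led the genes higher in T-47D, and MALAT1 stood close behind. MALAT1 was at 99241, 88009.5, 102379 and 110179 CPM in high and 29545, 36741, 28312 and 27665 CPM in low T-47D cells, and NEAT1 at 879 to 1117 and 166 to 295 CPM, so neither overlapped. Ribosomal protein genes had a median of -0.30 with none of 77 past 1.5-fold, and complex I one of -0.35 with none of 37, or -0.38 and -0.43 relative to the median gene. Length was ordered as in Ishikawa, with a rho of 0.66 over 7064 genes and medians of -0.29 in the shortest and 0.61 in the longest group.

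By its median the list of mitosis genes went the other way in T-47D, although the Ishikawa median of 0.72 turned to -0.13 with TMM factors. Of 40 tested none was higher and 14 were lower, with a median of -0.68 (-0.76 relative to the median gene). UBE2C, which marks mitotic proteins for destruction, was lowest at -2.32, with CDKN3 and BIRC5 at -2.23 and -1.94. In Ishikawa these 3 were negative as well, at -0.22, -0.61 and -0.23. PLK1, a mitotic kinase, was at 35.4, 46.6, 35.9 and 51.9 CPM in high and 20.4, 21.3, 16.9 and 17.2 CPM in low Ishikawa cells, but at 10.5, 7.99, 4.10 and 6.39 CPM in high and 18.9, 18.9, 17.0 and 19.1 CPM in low T-47D cells.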

How the data were processed

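Single-cell RNA-seq was made from 1 expression library for each of 2 cell lines (Ishikawa and T-47D), with a tag library for each. The UMI counts per gene and barcode, and the tag calls, were deposited by the authors and used as deposited. The submitters' processing notes name Cell Ranger 3.1.0 and hg38, and the study called tags with an R package for MULTI-seq. Doublets were left out by tag calls alone. UMI counts were summed per time point and class into pools and scaled to CPM of totals without mitochondrial, GFP and tdTomato features. Differences are of log2(CPM + 1), as the median over 4 times, and a gene was higher or lower where it averaged 10 CPM or more across the 8 pools and was at least 1.5-fold different the same way at all 4 times. High and low cells were compared within each culture. The classes were chosen by a measured share, and no p-value was computed; 95% intervals are exact Poisson, Clopper-Pearson or conditional.

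The members and gene lists were chosen with earlier results of these data known. Named genes were the mitochondrial genes, 11 fixed genes of this system, the 14 highest and 14 lowest genes, the extreme members of every gene list in either direction, and genes opposite in T-47D; further list members and other genes were chosen after their values were seen. TMM factors came from edgeR 4.0.16 (R 4.3.3), all else from Python 3.11.15 with numpy 2.4.6, scipy 1.17.1 and pandas 2.3.3. The rule that called genes and the intervals were tested on simulated counts, and the other steps were not. Spliced lengths came from GENCODE canonical transcripts matched by gene ID; that annotation is of another build than hg38, so no coordinates are given. Alternatives covered the minimum, fold, pseudocount, scaling, class limits, depth, GFP, cycling cells, thinning and each time left out. Some genes that this rule names are not reported here.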

Additional observations from a re-analysis of the deposited data

Results flagged for a closer look

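Some genes and lists differed in opposite directions in Ishikawa and T-47D at all 4 times, and this difference between the lines was not tested. The median log2 differences between high and low cells were 1.07 in Ishikawa and -1.292 in T-47D for PLK1, 1.04 and -1.221 for CDCA5, 1.10 and -1.117 for DEPDC1, and 0.97 and -1.199 for DLGAP5. They were 0.80 and -1.286 for SGO1, 0.91 and -1.162 for TROAP, and 0.98 and -0.9769 for FAM83D. E2F1, a transcription factor of the G1 to S transition, had 0.97 and -0.8335, and RACGAP1, of cytokinesis, 0.73 and -0.8068. With TMM factors SGO1 and RACGAP1 were at -0.06 and -0.12 in Ishikawa, and RACGAP1 was at -0.03 with median-of-ratios factors, while the other 7 stayed positive under both. Among Ishikawa cells under 8500 UMIs the 9 genes were at 0.71 to 3.46. The low pools there held only 53, 59, 27 and 55 cells, and 1 UMI stood for 7.16 CPM in that of 4 h. The larger of these values may therefore rest on very few UMIs.

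The list of G2 and mitosis genes had medians of 0.72 and -0.6819, and turned to -0.13 in Ishikawa with TMM factors. S phase genes had 0.45 and -0.4518, estrogen targets 0.28 and -0.1423, and mitochondrial protein import genes 0.07 and -0.1388; each of these 3 Ishikawa medians was below that of all genes (0.63). At 3000 to under 8500 UMIs the S phase list was 0.36 above the median gene. There 7 of 38 were higher, beside 9.98% of all genes, and none lower.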

How the results depend on the processing

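With a minimum of 50 CPM 1190 genes were higher. A fold of 2 gave 1907 higher and 137 lower, and a smaller fold limit 991 lower. TMM factors gave 626 and 2482, median-of-ratios factors 881 and 2125, and the scale relative to the median gene, chosen after seeing the data, 1208 and 1805. Totals of all features gave 911 lower, totals without ribosomal protein genes 965, and high cells from 10% 346. Cells of 8500 to 35000 UMIs gave 1810 and 311, those of 3000 to under 8500 UMIs 987 and 242, and low cells weighted toward the depth of high cells 1756 higher. Leaving out a time gave 3960 to 4057 higher and 572 to 671 lower.

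The percentage of high cells at 0, 2, 4 and 8 h was 3.57, 1.21, 1.58 and 1.20 at 8500 to 35000 UMIs, 60.3, 48.3, 58.9 and 54.7 at 3000 to under 8500 UMIs, 40.3, 20.4, 25.3 and 23.1 with a limit of 10%, and 14, 5.62, 8.91 and 8.83 with a limit of 20%.

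With TMM factors the medians turned to -0.11 for TGFA, -0.0587 for SGO1, -0.0282 for mitochondrial gene expression, -0.0506 for NF-kB targets, -0.23 for hypoxia, -0.26 for cholesterol, -0.17 for splicing and -0.13 for G2 and mitosis genes. With median-of-ratios factors they turned to -0.12 for hypoxia, -0.14 for cholesterol, -0.0395 for splicing and -0.0049 for G2 and mitosis genes. Lists with smaller positive medians turned negative there too, among them S phase genes (-0.26), estrogen targets (-0.45) and endoplasmic reticulum chaperones (-0.34). At 3000 to under 8500 UMIs NEAT1 was at -0.14, TGFA at -0.31, HIST1H3B at 0.91, CRYAB at 0.57, BCL2L2 at -0.17, NFKB2 at -0.18 and NF-kB targets at -0.17. ATF3 was at 0.0193 among cells under 1% GFP, and cholesterol genes at -0.0313 when each gene was set against the median gene of its time before medians were taken (-0.05 when the medians were subtracted). The cause was not tested. High and low cells were compared within each culture, so all differences between them are paired by time. No test was run, paired or not, since the classes were chosen on these values. The weighting also moved the E2 changes in low cells for G0S2 and DHRS3 at all 3 times and for TGFA at 2 and 8 h. High pools held few UMIs of rare genes, and low cells of like depth were few.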
